A study of Mus musculus with 20 samples.

Results

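The 9 genes described here mark muscle satellite cells or encode the myogenic regulatory factors: Pax7, Myf5, Myod1, Myog, Myf6, Cdh15, Chrdl2, Megf10 and Msc. They were chosen by symbol and found by their Ensembl identifiers among the 55401 genes of the count matrix. RNA was sequenced from the gastrocnemius, the large calf muscle, of 20 mice of the inbred strain C57BL/6 aged 24 months. Haenkenium (HK), a Salvia haenkei plant extract, was given to 10 of them in their water at 0.5 mg per kg per day for 4 months from the age of 20 months, and the other 10 received none. There were 5 males and 5 females in each group, and the labels place 4 mice of each group in experimental batch 1 and 6 in batch 2, so that treatment, sex and batch did not coincide. All mice were old and of 1 strain, and no young mice were analysed here.

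Satellite cells are the stem cells of skeletal muscle, which lie between a fibre and its sheath. Pax7, a paired-box transcription factor, defines them, and resting cells also carry Myf5 RNA. Once activated, they make MyoD, the product of Myod1, divide, switch on myogenin (Myog) and leave the cell cycle, and then fuse with fibres. The 4 myogenic regulatory factors Myf5, MyoD, myogenin and MRF4 (the product of Myf6) bind DNA as pairs with E proteins at the short motif called the E-box. MRF4 is made mainly by mature fibres, and fibres that lose their nerve raise Myog. Of the other members, Cdh15 encodes M-cadherin, a cell adhesion molecule at the satellite cell surface, Megf10 a transmembrane receptor linked to satellite cell proliferation, Chrdl2 a secreted antagonist of bone morphogenetic proteins, and Msc (musculin) a repressor of the same protein class as MyoD.

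The upstream sequences of Myog and Myf5 are shown because these were the myogenic regulatory factors with the widest and the narrowest spread between mice. Both are the 250 bases before the RefSeq start on GRCm38.p6, written 5′ to 3′ on the strand of the gene. Capitals mark matches to CANNTG, the E-box, and to CTANNNNTA, the core letters of the motif of MEF2 proteins, both searched on both strands.
Myog, chr1:134289754-134290003, plus strand: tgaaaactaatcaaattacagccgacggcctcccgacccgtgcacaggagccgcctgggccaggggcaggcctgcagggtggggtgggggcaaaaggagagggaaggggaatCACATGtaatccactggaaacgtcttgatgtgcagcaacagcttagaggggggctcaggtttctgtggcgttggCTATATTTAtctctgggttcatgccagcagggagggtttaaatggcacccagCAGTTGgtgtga
Myf5, chr10:107486135-107486384, minus strand: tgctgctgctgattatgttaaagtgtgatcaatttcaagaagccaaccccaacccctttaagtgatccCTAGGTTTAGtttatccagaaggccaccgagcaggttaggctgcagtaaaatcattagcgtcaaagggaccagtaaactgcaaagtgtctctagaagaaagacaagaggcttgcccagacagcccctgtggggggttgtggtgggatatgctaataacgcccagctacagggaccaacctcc
The Myog window held 2 E-box matches, CACATG at 138 to 133 bases and CAGTTG at 12 to 7 bases before the start, and 1 CTANNNNTA match at 64 to 56 bases before it. The end of this window lies inside the first exon that GENCODE M21 gives for Myog. The Myf5 window held no E-box match and 2 overlapping CTANNNNTA matches. Sequences were found for 4 of the 9 genes. In the windows not shown, Cdh15 held 3 E-box matches and no CTANNNNTA, and Pax7 held neither. Those windows, set by RefSeq, lie inside the genes as GENCODE M21 draws them, since it places both starts farther upstream. Of 32851 RefSeq windows of the same length, 66.2% held an E-box match and 19.0% a CTANNNNTA match, so these letters are common and a match is only a description.

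Levels between genes were set side by side as RPKM, which scales counts by library size and exon length. Values of single genes are given as CPM, which scales by library size alone. Myf6 was the most abundant of the 9 genes, at 88.7 ± 30.8 RPKM (mean ± SD, n = 20), and was above every other member in all 20 mice. Myod1 (9.79 ± 3.32), Myog (9.26 ± 6.20) and Cdh15 (8.14 ± 1.60) formed a second tier. Their order was not fixed: Myod1 exceeded Myog in 12 of 20 mice, and Myog exceeded Cdh15 in 10 of 20. The remaining genes were low. Cdh15 was above Myf5 (0.653 ± 0.195) in all 20 mice, and Myf5 was above Msc (0.410 ± 0.263) in 18. Msc was above Pax7 (0.308 ± 0.0976) in 10 mice, Pax7 above Chrdl2 (0.226 ± 0.112) in 15, and Chrdl2 above Megf10 (0.134 ± 0.0741) in 14. Pax7, the defining gene of satellite cells, was thus detected in every mouse, with 11 to 76 counts, and so were the 8 other genes.

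The genes differed in how far they varied between mice. Cdh15 was the steadiest, with a coefficient of variation of 19.7% and a highest level 2.25-fold the lowest. Myf5 (29.9%), Pax7 (31.7%), Myod1 (33.9%) and Myf6 (34.7%) followed. Myog spanned 24.9-fold, from 1.01 to 25.2 RPKM, with a coefficient of variation of 67.0%. The scarce genes rested on few counts: Chrdl2 had 1 to 24 counts per mouse, Megf10 4 to 39 and Msc 7 to 51.

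**Figure D1:**
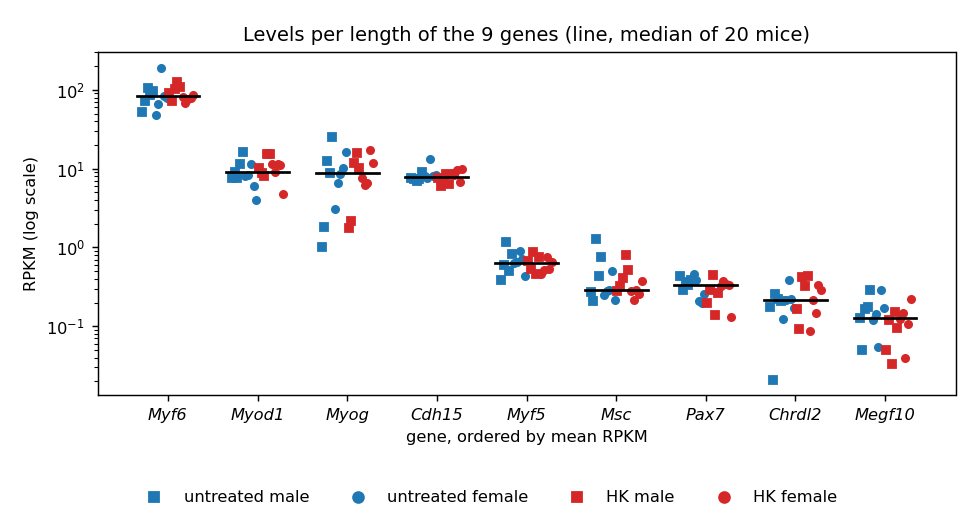
RPKM of the 9 genes on a log scale, ordered by mean, with 1 point per mouse (square, male; circle, female; blue, untreated; red, HK) and a line at the median of 20 mice. Myf6 stands above the rest in every mouse, Cdh15 is tight, and Myog spreads over 24.9-fold.

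Libraries held 13900180 to 30469644 counts, with a median of 17016047. Genes of muscle fibres (Acta1, Ckm, Myh4, Mylpf, Tnnt3 and Tnni2) summed to 122400 to 168100 CPM in every mouse, so the libraries carried the defining genes of the labelled tissue. Untreated male 3 stood apart by its slow fibre genes, which summed to 7355 CPM against a median of 1376 CPM in males of batch 2, and by fibroblast-lineage genes, at 1389 CPM. In a sample of whole muscle, fewer satellite cells and less RNA per cell cannot be told apart.

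HK against untreated was the treatment comparison among these old mice. The study also sequenced young mice and tested HK on sets of genes that differed with age, which was not repeated here. None of the 9 genes passed the test, and none had an unadjusted p under 0.05. Over the 12923 genes tested with edgeR (quasi-likelihood, sex and batch as further terms), 0% were called at an adjusted p under 0.05 and 6.08% had an unadjusted p under 0.05. DESeq2 called none of the 9 either. The lowest adjusted p among them was 0.823.

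Pax7 RNA was between 0.770 and 2.58 CPM in HK-treated mice (median 1.78) and between 1.15 and 2.68 CPM in untreated mice (median 2.06). The groups overlapped over most of their range, and the untreated median was above 8 of 10 HK-treated mice. The log2 fold change was −0.22 ± 0.21 (SE), with a 95% interval from 0.636-fold to 1.16-fold. Myf5, the other factor present in resting satellite cells, was at 1.24 CPM in the median HK-treated mouse and at 1.33 CPM in the median untreated one, a log2 fold change of −0.14 ± 0.18.

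Whole muscle RNA does not show which cells carried Myod1 or Myog. Myod1 was between 9.00 and 29.0 CPM in HK-treated mice (median 19.7) and between 7.41 and 30.1 CPM in untreated mice (median 15.4). It was above the untreated median in 8 of 10 HK-treated mice, but the ranges coincided, and the log2 fold change of 0.24 ± 0.20 gave an adjusted p of 0.848 (edgeR). Myog had almost the same median with HK (13.3 CPM) as without (13.03 CPM), with a log2 fold change of 0.06 ± 0.30. Its interval was wide, from 0.676-fold to 1.60-fold. Myf6, the factor of mature fibres, had a median of 105 CPM with HK and 103.7 CPM without (log2 fold change 0.06 ± 0.16).

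Megf10 had the largest fitted difference, at −0.50 ± 0.33, with 9 of 10 HK-treated mice below the untreated median. Its range was 0.258 to 1.72 CPM with HK and 0.385 to 2.26 CPM without. The interval, 0.441-fold to 1.13-fold, included no difference, and the unadjusted p was 0.136. Cdh15 had the tightest interval of the 9, from 0.817-fold to 1.08-fold, around a log2 fold change of −0.09 ± 0.10. Chrdl2 (0.23 ± 0.26) and Msc (−0.21 ± 0.23) lay on either side of 0.

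**Figure D2:**
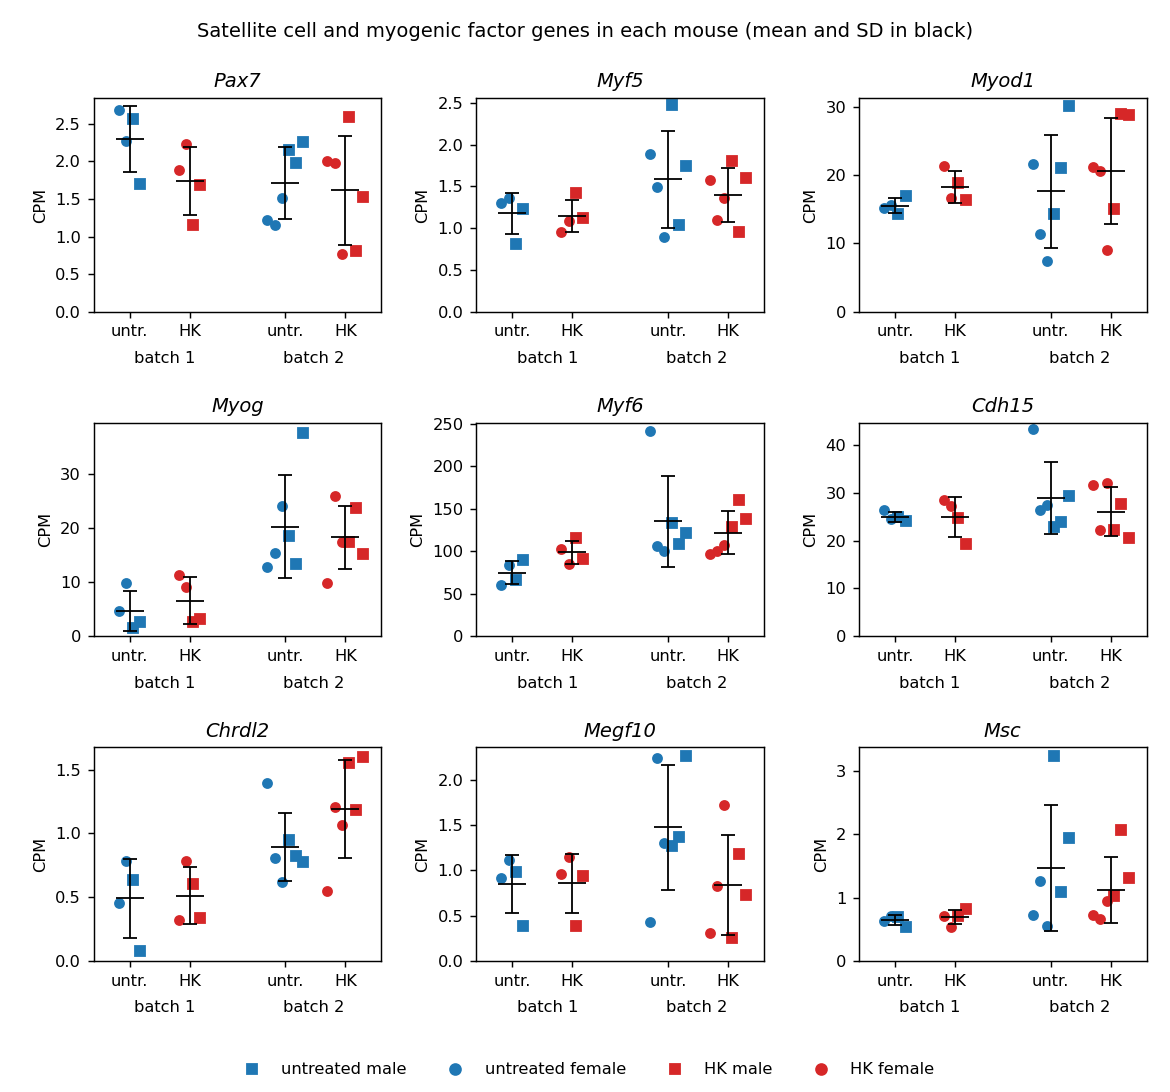
CPM of each gene in every mouse, split by batch and treatment, with 1 point per mouse (square, male; circle, female) and the mean and SD in black. HK-treated and untreated mice overlap in each batch for Myog, while all 8 mice of batch 1 sit at or below 11.4 CPM and the mice of batch 2 reach 37.6 CPM.

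The HK effect was then compared between sexes and between batches. No member passed the treatment by sex test (0% of 13626 genes called; lowest adjusted p among the 9, 0.998) or the treatment by batch test (0% of 13800 genes; lowest adjusted p 0.9997). Within batch 1 alone Myf6 had a log2 fold change with HK of 0.39 ± 0.13 (unadjusted p of the edgeR quasi-likelihood test 0.0149) and Myod1 of 0.24 ± 0.10 (unadjusted p 0.043 by edgeR), both with an adjusted p of 0.997. In batch 2 Myf6 was at −0.16 ± 0.22. Within males alone Myf6 was at 0.30 ± 0.10 (unadjusted p 0.0149 and adjusted p 0.674 by edgeR), and within females at −0.19 ± 0.26.

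None of the other genes of the pathway passed the test for HK either. Of the genes that passed the filter on low counts, none was called among 15 other satellite cell genes, 11 of the Notch pathway, which keeps satellite cells at rest, 6 E proteins and MEF2 partners, 8 inhibitors of the factors, 7 of fusion and regeneration, 10 of denervation and 3 of proliferation. In the fusion and regeneration list all 7 fitted values were below 0, and their median was −0.63 on the log2 scale, where that of all genes was 0.00. The highest sums of that list were those of untreated male 5 (619.8 CPM), male 3 (366.6 CPM) and female 4 (348.8 CPM), all of batch 2. The highest HK-treated mouse had 303.5 CPM. In batch 1 the sums overlapped, at 90.63 to 143.6 CPM in untreated mice and 73.19 to 136.2 CPM with HK. They overlapped in batch 2 too, at 132.5 to 619.8 CPM untreated and 101.7 to 303.5 CPM with HK. Lists of other cells also had all their fitted values on one side, where 6331 of all 12923 genes tested were below 0. Below 0 were 8 of 8 slow fibre genes (median −0.70) and 8 of 8 macrophage genes (median −0.30). So were 6 of 6 fibroblast-lineage genes (median −0.22) and 4 of 4 endothelial genes (median −0.27). Above it were 5 of 5 Schwann cell genes (median 0.35), and none of these genes was called. Mixed lists were those of muscle fibre (4 above 0, 2 below), Notch (4 and 7) and denervation (4 and 6). Genes of a list were measured in the same mice, and whether a list shifted as a set was not tested. The highest slow fibre sum, 7355 CPM, was that of untreated male 3. In females those sums overlapped, at 2798 to 5218 CPM untreated and 2913 to 4046 CPM with HK. In males they overlapped as well, at 895 to 7355 CPM untreated and 865.7 to 1662 CPM with HK. Embryonic myosin Myh3 (−1.43 ± 0.45, adjusted p 0.799 by edgeR) and neonatal myosin Myh8 (−0.63 ± 0.22, the same adjusted p) had the lowest p in the fusion and regeneration list. Among the other satellite cell genes Met, the receptor of hepatocyte growth factor, had the lowest p (0.28 ± 0.12), followed by the adhesion molecule Ncam1 (−0.49 ± 0.23), which denervated fibres also make. Dll1, a Notch ligand, stood at 0.37 ± 0.13 and the receptor Notch2 at −0.11 ± 0.07. The inhibitor Id1 (0.43 ± 0.21) and the partner Mef2a (0.12 ± 0.06) led their lists. In the proliferation list Mki67 was at −0.59 ± 0.52. All of these had an adjusted p of 0.799 or more by edgeR. The median of the 9 members was −0.09.

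Batch was where the members moved. Myog, Chrdl2, Msc and Myf6, 4 of the 9, were higher in batch 2 than in batch 1, and none was lower. That count stands against a background of 36.5% of 12923 genes called in either direction and 19% called higher. Chrdl2 averaged 0.500 CPM in batch 1 and 1.04 CPM in batch 2, and so passed the filter on low counts more through batch 2. A count that includes it is not strictly comparable with that background. With that many genes called, being called between batches did not set these genes apart, and the difference of their count from the background was not tested.

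Myog was between 1.51 and 11.4 CPM in the 8 mice of batch 1 (median 3.91) and between 9.96 and 37.6 CPM in the 12 mice of batch 2 (median 17.5). All 12 mice of batch 2 were above the batch 1 median, and the ranges met only between 9.96 and 11.4 CPM. The log2 fold change was 1.87 ± 0.33 (3.65-fold, 95% interval 2.26 to 5.89; edgeR adjusted p 3.17e-04). Myod1, which precedes Myog in the sequence of differentiation, was not called between batches. Its median was 16.5 CPM in batch 1 and 20.8 CPM in batch 2, and its log2 fold change was 0.14 ± 0.20. Within males it was 0.46 ± 0.22 (edgeR adjusted p 0.143) and within females −0.19 ± 0.28 (edgeR adjusted p 0.705).

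Chrdl2 rose from a median of 0.529 CPM in batch 1 to 1.01 CPM in batch 2 (log2 fold change 1.04 ± 0.27, edgeR adjusted p 0.00611). Its highest batch 1 value was 0.786 CPM, a level that most batch 2 mice exceeded. Msc rose from 0.6997 to 1.06 CPM by median (0.82 ± 0.24, edgeR adjusted p 0.0114), and all 8 batch 1 mice lay within 0.539 to 0.821 CPM. That rise was 1.27 ± 0.36 in males (edgeR adjusted p 0.025) and 0.32 ± 0.26 in females, where it did not pass (edgeR adjusted p 0.453). Chrdl2 likewise was 1.41 ± 0.37 in males (edgeR adjusted p 0.0201) and 0.74 ± 0.36 in females (edgeR adjusted p 0.205). Myf6 rose from 87.8 to 115 CPM (0.57 ± 0.16, edgeR adjusted p 0.0088), with all 12 batch 2 mice above the batch 1 median. Within males it was 0.53 ± 0.11 (edgeR adjusted p 0.00671) and within females 0.57 ± 0.27 (edgeR adjusted p 0.196). Pax7 (−0.28 ± 0.21), Myf5 (0.35 ± 0.18), Cdh15 (0.13 ± 0.10) and Megf10 (0.38 ± 0.33) did not pass.

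Markers of other cells moved with batch too, in a comparison where 36.5% of all genes were called and 19% were called higher. All 8 macrophage genes were called higher in batch 2, and their summed level was 15.1 to 46.6 CPM in batch 1 and 42.0 to 177 CPM in batch 2. All 6 genes of the fibroblast lineage were called higher as well, with sums of 174 to 412 CPM and 310 to 1389 CPM. Of 4 endothelial genes 1 was called higher, while none of 8 slow fibre genes and none of 5 Schwann cell genes was called. The part of these cells in the batch difference of the 9 genes was not tested.

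Genes that act with the factors were counted by list, in a comparison where 36.5% of all genes were called. Lists were not tested against each other. Among the 15 other satellite cell genes tested, 7 were higher in batch 2 and 1 lower. Sdc4, a surface proteoglycan, rose most (1.24 ± 0.21), and Six4, a homeobox factor, was the one that fell, with a log2 fold change of −0.30 ± 0.08. Of the fusion and regeneration genes 6 of 7 were higher, led in p by Mymk, the fusion protein myomaker (2.92 ± 0.76). Of the 10 denervation genes 4 were higher, and the lowest p was that of Chrng, the fetal subunit of the acetylcholine receptor (2.598 ± 0.68). Of 8 proliferation genes only 3 passed the filter on low counts. Of these Mki67 (2.44 ± 0.59) and Top2a (2.40 ± 0.56) were higher. Mki67 and Top2a averaged 0.327 and 0.279 CPM in batch 1, against 2.36 and 2.08 CPM in batch 2. Mymk (0.324 against 4.32 CPM) and Chrng (0.439 against 3.48 CPM) were similar. These genes passed the filter largely through batch 2, so counts that include them are not comparable with the 36.5%. Of the 11 Notch genes 4 were higher, Notch2 with the lowest p (0.39 ± 0.08), while none was lower. The inhibitors Id1 (1.59 ± 0.22), Id3 (0.86 ± 0.15) and Twist1 (0.87 ± 0.21) rose and Dach2 fell (−0.53 ± 0.14). Among the 6 partners Mef2a (−0.26 ± 0.06) and Mef2c (−0.23 ± 0.08) fell.

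**Figure D3:**
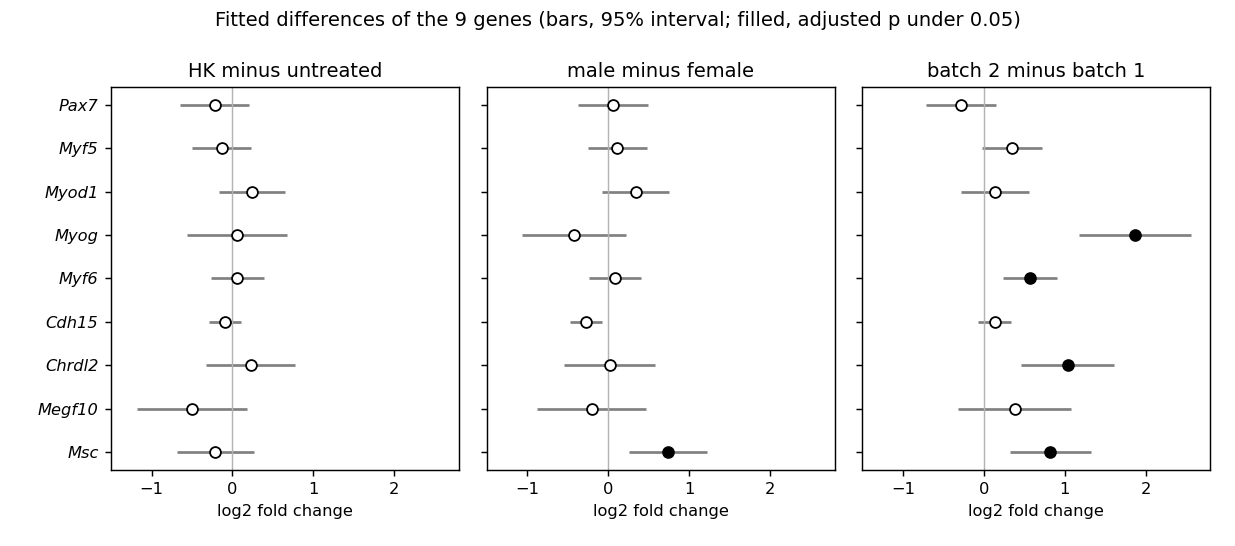
Fitted log2 fold changes of the 9 genes with 95% intervals for HK minus untreated, male minus female and batch 2 minus batch 1 (edgeR, filled points have an adjusted p under 0.05). No point is filled for HK, 1 is filled for sex (Msc) and 4 are filled for batch.

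The batch difference of Myog was not the same in both sexes, and this split was examined after its values had been seen. In males of batch 1 Myog was at 1.51 and 2.69 CPM in the untreated mice and at 2.68 and 3.21 CPM in the HK-treated mice. In females of batch 1 it was at 4.61 and 9.84 CPM in the untreated mice and at 11.4 and 9.16 CPM in the HK-treated mice. The lowest female was above the highest male, as happened for 7.41% of the genes tested. Within batch 1 Myog was lower in males by a log2 fold change of −1.81 ± 0.26 (edgeR adjusted p 0.00265). Of all genes, 9.46% were called between the sexes within that batch.

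In batch 2 the sexes overlapped. Males ranged from 13.3 to 37.6 CPM and females from 9.96 to 26.0 CPM, and the log2 fold change was 0.23 ± 0.28, where 6.53% of genes were called. Males of batch 2 were all above males of batch 1, with a ratio of the means of 8.33 (log2 fold change 3.01 ± 0.34, edgeR adjusted p 6.89e-04). A complete separation in that direction held for 8.01% of genes, and 25.7% were called between the batches in males. In females the shift was smaller, at 1.02 ± 0.30 (edgeR adjusted p 0.0518, with 10.4% of genes called).

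The difference between those effects, the sex by batch term, was 2.02 ± 0.47 on the log2 scale for Myog. Its unadjusted p was 3.44e-04 in the edgeR fit, the 35th lowest of 13800 genes, and its adjusted p was 0.132, in a fit where 0% of genes were called and 13% had an unadjusted p under 0.05. By DESeq2 the same term was 2.04 ± 0.45 with an adjusted p of 0.00558. Whether the sexes differed in the batch shift of Myog therefore depended on the tool. Mki67, a marker of dividing cells, also had its lowest mean in the males of batch 1. It averaged 0.104 CPM in males and 0.550 CPM in females of batch 1, and 3.65 CPM in males and 1.08 CPM in females of batch 2. The males of batch 1 lay near the floor, from 0 to 0.187 CPM, with 0 counts in 1 mouse.

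**Figure D4:**
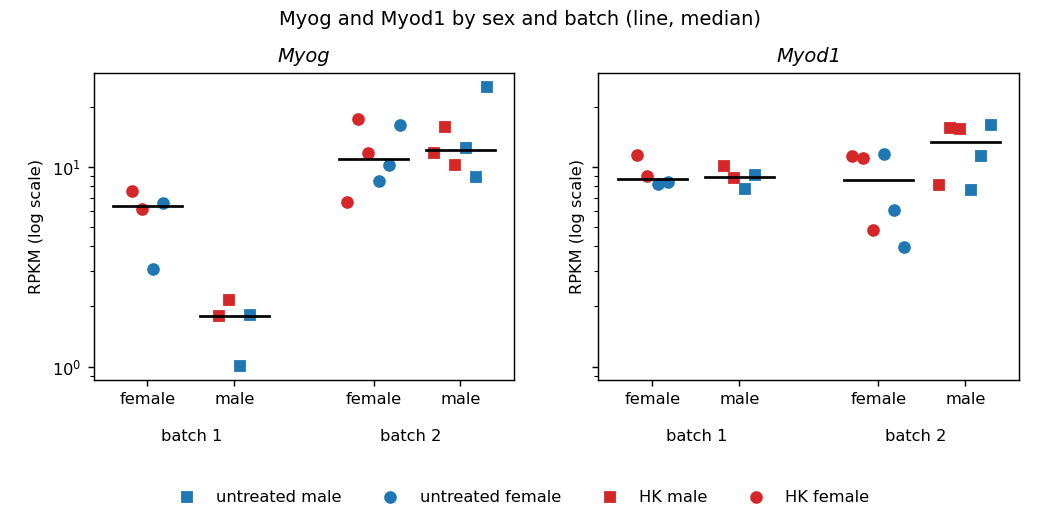
RPKM of Myog and Myod1 on a log scale by sex and batch, with 1 point per mouse and a line at the median. The 4 males of batch 1 have the lowest Myog of all mice, whereas their Myod1 lies among that of the other mice.

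Because both genes were measured in the same library, the ratio of Myod1 to Myog does not depend on its depth. The log2 ratio of their RPKM was above 0 in all 8 mice of batch 1, with a mean of 1.59 ± 1.001 (SD), and in 4 of 12 mice of batch 2, with a mean of −0.37 ± 0.83. Males of batch 1 had 2.45 ± 0.38 and females of batch 1 had 0.72 ± 0.47. By treatment the means were 0.46 ± 1.17 with HK and 0.37 ± 1.52 without, with 6 of 10 mice above 0 in each group.

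Between males and females over both batches, Msc was called, 1 of the 9 genes, where 16.8% of 12923 genes were called and 9.52% were called higher in males. Msc was between 0.539 and 3.23 CPM in males (median 1.06) and between 0.542 and 1.26 CPM in females (median 0.703). The highest values were those of males of batch 2, and the ranges overlapped below 1.26 CPM. The log2 fold change was 0.74 ± 0.23 (edgeR adjusted p 0.0335). Without untreated male 3, which had the highest value, it was 0.56, with an edgeR adjusted p of 0.0607, and leaving out any 1 of 6 other mice also ended the call. Within batch 1 the difference was 0.09 ± 0.25, and within batch 2 it was 1.08 ± 0.30 (edgeR adjusted p 0.0516). Msc lies over the antisense gene Gm9947, which had 32 counts over all mice against 365 for Msc, and without strand their reads cannot be told apart.

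Cdh15 was at 23.96 ± 3.01 CPM in males and 28.96 ± 5.86 CPM in females (SD, n = 10 each), a log2 fold change of −0.27 ± 0.10. Its edgeR adjusted p of 0.0559 missed the threshold, which it passed when any 1 of 6 mice was left out. The fitted difference had the same sign within each batch, at −0.21 ± 0.10 and −0.33 ± 0.14. The other 7 genes had adjusted p-values of 0.255 or more.

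Marker RNAs of fibre types and other cells differed between the sexes as well, beside the 16.8% of all genes called. Of the 8 slow fibre genes 7 were called lower in males (median −1.14 on the log2 scale), and 3 of the 6 muscle fibre genes named above were called higher. Of 5 Schwann cell genes 2 were lower in males, and 1 of 8 macrophage genes was higher. None of 4 endothelial genes and none of 6 fibroblast-lineage genes was called. Notch2 (−0.37 ± 0.07) was lower in males, as was Tenm4 (−1.02 ± 0.30) among the other satellite cell genes. Of the denervation list Musk, the receptor kinase of the neuromuscular junction, was higher in males (0.90 ± 0.20) and Gadd45a lower (−0.58 ± 0.16), and of the fusion and regeneration list Cdkn1c was higher (0.78 ± 0.16). The part of fibre type in the values of Msc and Cdh15 was not tested.

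Covariation from mouse to mouse was examined after batch, sex and treatment had been removed. None of 36 pairs among the 9 genes had a permutation p under 0.05 after adjustment over the pairs (100000 resamples within sex and batch), and 4 had an unadjusted p under 0.05. The highest was that of Myf6 with Cdh15 (r = 0.58, permutation p 0.0381, adjusted permutation p 0.449; Spearman rho 0.25, permutation p 0.287), and it rested on few mice, since r was 0.15 without the 2 farthest. Here and below, these are the 2 mice farthest from the median of the first gene named. Outlying values of the second gene could remain. Megf10 with Msc had r = 0.55, and 0.54 without the 2 mice farthest in Megf10 (permutation p 0.0233, adjusted 0.449; Spearman rho 0.60, permutation p 0.0103). Mice outlying in Msc were not left out. Within batches that r was 0.67 and 0.51. Pax7 and Myf6, the genes of stem cell and mature fibre, had the lowest value, r = −0.43 (permutation p 0.0499, adjusted 0.449; Spearman rho −0.45, permutation p 0.0319), with −0.52 without the 2 farthest mice.

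The 9 genes were also set against 6 genes of other processes: Chrna1 (denervation), Myh3 (regeneration), Myh7 (slow fibre), Csf1r (macrophage), Pdgfra (fibroblast lineage) and Mki67 (dividing cells). None of 54 pairs passed after adjustment, and 7 had an unadjusted permutation p under 0.05. Megf10 came nearest, with Mki67 (r = 0.73, permutation p 0.0017, adjusted 0.0918; Spearman rho 0.66, permutation p 0.00103, adjusted 0.0556). Without the 2 farthest mice r was 0.54, and within batches it was 0.75 and 0.73. Myog with Mki67 had the same r of 0.73 but a permutation p of 0.0373 (adjusted 0.359; Spearman rho 0.71, permutation p 0.0944), and r was 0.45 with sex by batch removed too. Myog with Chrna1, the muscle subunit of the acetylcholine receptor, had r = 0.60 (permutation p 0.0203, adjusted 0.359; Spearman rho 0.43, permutation p 0.0846) and r = 0.32 without the 2 farthest mice.

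For Pax7, Myod1 and Myog the most similar of 12922 genes were listed as a description, over the same adjusted values of 20 mice. Pax7 was nearest to Spata13 (r = 0.85), Mov10 (0.85) and Adamts10 (0.82). Myod1 was nearest to Zzz3 (0.85), G0s2 (0.84) and Rps6ka5 (0.79), and Myog to Pip4k2a (0.81), Wdpcp (0.79) and Wdfy4 (0.78). As the highest of 12922 values over 20 mice, these r are high by selection, and none was tested.

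By position on GRCm38 (GENCODE M21), Myog (chr1:134289989-134292548) and Msc (chr1:14753346-14755992) lie on chromosome 1, Myod1 (chr7:46376474-46379099) and Chrdl2 (chr7:100006172-100034728) on chromosome 7, Pax7 (chr4:139737062-139833528) on chromosome 4, Cdh15 (chr8:122847966-122867397) on chromosome 8 and Megf10 (chr18:57133090-57297467) on chromosome 18. Myf6 (chr10:107492853-107494737) and Myf5 (chr10:107482908-107486134) are neighbours on the minus strand of chromosome 10. Their levels differed widely in spite of that: Myf6 had 39841 counts over the 20 mice and Myf5 491. Cdh15 overlaps Gm20388 on the same strand, which had 0 counts in all mice.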

How the data were processed

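RNA of 20 gastrocnemius muscles was sequenced after removal of ribosomal RNA. The authors aligned reads with STAR 2.6.1c (two-pass) to GRCm38.p6, quantified genes with GENCODE M25 and deposited raw counts, whole numbers without normalization. Neither counting tool nor strand use is given in the sources used here. Groups, sex, batch and replicate came from the labels, and age and length of treatment from the methods. Titles of the treated females write HF and those of the treated males HK. The treatment label gives Haenkenium extract for both sexes and was followed. Names, positions and exon lengths came from GENCODE M21 (55141 of 55401 identifiers matched; the other 260 held 0.00127% of counts), and upstream sequences from RefSeq.

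Counts were tested with edgeR 4.0.16 (quasi-likelihood, TMM, filterByExpr on treatment, 12923 genes) in R 4.3.3, with batch, sex and treatment as terms and Benjamini-Hochberg adjustment over all genes tested. Interactions used 13626 or 13800 genes. All 9 genes passed the filter. CPM and RPKM used TMM library sizes, and log2 CPM for correlations a prior count of 2. Each mouse is a separate animal. Alternatives were DESeq2 1.42.0, its size factors, no filter, a replicate block, each batch or sex alone and each mouse left out. In simulated counts for HK against untreated (12821 genes), 99% of 193 genes changed by a log2 fold change of 1.5 to 2 were recovered and 4.5% of calls were false, so smaller changes were not covered. Same-numbered HK-treated and untreated mice did not vary together (correlation over 0.1 in 1 of 10 pairs).

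The members and the gene lists were chosen with earlier results of these data known. All 9 members are named. From each other list the text names genes with an adjusted p under 0.05, at most 4 by lowest p, or otherwise those of lowest p. The values of 1 gene under this rule are not reported here. Intervals are 95% intervals of the fit. Python 3.11.15, numpy 2.4.6, pandas 2.3.3, matplotlib 3.10.9 and limma 3.58.1 were also used.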

Additional observations from a re-analysis of the deposited data

Results flagged for a closer look

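In groups of 10 mice, 4 values stood apart from the rest of their group by more than Dixon's 95% limit of 0.466 of the group's range, out of 18 groups examined. Chance flags about 1 group in 20 where the mice of a group are alike, but each group here held both sexes and both batches, between which Msc was called, and Myf6 was called between batches. That rate is therefore only a guide. The 3 mice concerned belonged to batch 2. Untreated female 3 had 242 CPM of Myf6, against 133 CPM in the next highest untreated mouse, and 43.4 CPM of Cdh15, against 29.4 CPM in the next. Untreated male 3 had 3.23 CPM of Msc, against 1.93 CPM in the next, and it was also the mouse with the highest slow fibre sum (7355 CPM) and fibroblast-lineage sum (1389 CPM). HK male 4 had 2.07 CPM of Msc, against 1.31 CPM in the next HK-treated mouse, with a slow fibre sum of 1090 CPM. Myf6 and Cdh15, the fibre factor and the adhesion molecule, were thus high in the same mouse.

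The sex difference of Myog differed between the batches by 2.02 ± 0.47 on the log2 scale. DESeq2 called this difference (adjusted p 0.00558) and edgeR did not (adjusted p 0.132).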

How the results depend on the processing

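No setting tried called any of the 9 genes for HK: DESeq2 size factors, no filter, the DESeq2 test, each batch or sex alone and each mouse left out (0 to 0) all gave 0. Over all genes the count called for HK was 0, but 502 without the filter and 6 by DESeq2. Fitted HK values changed sign in some subsets: within batch 1 Chrdl2 was −0.070 and Msc 0.10, within batch 2 Myog was −0.12 and Myf6 −0.16, in males Myog was −0.062, and in females Pax7 was 0.021, Myf6 −0.19 and Chrdl2 −0.11. With each mouse left out the HK value of Myog ran from −0.082 to 0.31.

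The replicate block, with the label number as a pair, gave 0 members called, like the fit without it. The mouse numbers do not pair the animals, and 0 of 20 mice correlated best with their own number.

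For batch, 4 members were called under both normalizations, without the filter, by DESeq2, within males and with each mouse left out (4 to 4), but 0 within females, in which Myog was 1.02, Chrdl2 0.74, Myf6 0.57 and Msc 0.32. Within males Pax7 was 0.076, and within females Myod1 was −0.19.

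For sex, the count of 1 was 4 without the filter (Myod1, Myog, Cdh15 and Msc), 0 within batch 2, and 0 to 2 with each mouse left out. The count was 0 without untreated male 3, untreated female 5 or HK female 3. Msc ran from 0.56 to 0.81 and lost its call without any 1 of 7 mice (untreated males 3 and 5, untreated females 3 and 5, HK male 4, HK females 3 and 4). Cdh15 gained one without any 1 of 6 mice (untreated male 5, untreated females 2 and 4, HK males 1 and 4, HK female 4). Within batch 1 the signs of Pax7 (−0.36), Myf5 (−0.043), Myod1 (−0.065) and Chrdl2 (−0.41) turned, and within batch 2 that of Myog (0.23). With each mouse left out Pax7 ran from −0.050 to 0.14 and Chrdl2 from −0.099 to 0.11. Without untreated female 3, Myf6 was called higher in males (0.27, edgeR adjusted p 0.036).

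Without the filter 1 member was called for treatment by sex (Myf6), 1 for treatment by batch (Myf6) and 2 for sex by batch (Myod1 and Myog), with 314, 225 and 825 genes called in all against 0 in each filtered fit. DESeq2 called 1 member (Myog) and 141 genes for sex by batch. With each mouse left out 0 to 0 members were called in edgeR. The sex difference of Myog within batch 1 ran from −1.98 to −1.58 with each mouse left out and passed the threshold each time. The causes of these changes were not tested. The correlations gave 0 adjusted pairs under all alternatives tried. The splits by sex within batch and batch within sex and the sex by batch term were chosen after seeing the data. Depth limits Chrdl2, Megf10, Msc, Myf5 and Pax7 most, and it also limits Mki67.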
